A study of Mus musculus with 30 samples.

Results

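The HSC surface identity genes described here are 8 genes whose transcripts are used to recognise mouse haematopoietic stem cells (HSCs), the rare bone marrow cells that renew blood: Procr, Slamf1, Ly6a, Cd9, Cd27, Robo4, Fgd5 and Ctnnal1. They were taken by gene symbol from a table of 35727 genes, and all 8 passed the filter on low values that left 16958 genes for testing. Of the 8, 6 encode proteins at the cell surface. Fgd5 and Ctnnal1 encode proteins inside the cell and are known as HSC genes from reporter mice.

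HSCs are sorted from marrow as cells that lack the antigens of mature lineages and carry a particular set of surface proteins. Procr (EPCR, the endothelial protein C receptor) and Slamf1 (CD150, a self-binding receptor of the SLAM family) are among the most selective of these, and CD150 is paired in sorting with the absence of CD48, another SLAM family protein. Ly6a (SCA-1, a lipid-anchored protein induced by interferons), Cd27 (a TNF receptor family member that binds CD70), Cd9 (a tetraspanin that organises other membrane proteins and is abundant on platelets) and Robo4 (a roundabout receptor shared with endothelium that helps to retain HSCs in marrow) are used alongside them. Fgd5 is a guanine exchange factor for the small GTPase CDC42, and Ctnnal1 encodes alpha-catulin, a relative of the alpha-catenins. In old mice, phenotypic HSCs are known to accumulate and to carry more CD150.

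Bone marrow HSCs were profiled by RNA sequencing in 30 libraries of 8 groups. Wild-type (WT) mice were sampled at 2 months (4 libraries), 1 year (5) and 2 years (4). Mice labelled IL1R1 KO, that is, lacking the type 1 interleukin-1 receptor by their label, were sampled at the same ages (3, 4 and 5 libraries), and bowel germ-free mice, which carry no label of a genetic change, at 2 months (3) and 1 year (2). The series title asks how IL-1 and gut microbes bear on HSC ageing. The sources used here give neither the knockout allele, the strain, the sex nor the surface markers used for sorting, so a gene of this list may itself have served as a gate. The design text counts 30 mice, but no label ties a library to an animal. If any libraries share one, the p-values cover only the spread among these samples.

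Estimated depth was 15.6 to 56.3 M reads per library. WT libraries of 1 year were the deepest of the WT groups, each with 32.6 M or more. WT libraries of 2 months and 2 years stayed at or below 29.5 M and 29.6 M. Germ-free libraries reached 32.1 M at 2 months and 23.9 M at 1 year. The IL1R1 KO groups, whose highest libraries held 32.9 to 35.7 M, overlapped WT at 1 year. The part of depth in the changes of the 8 genes was not tested. The HSC markers Mecom, Hlf, Mllt3, Meis1 and Hoxb5 were above 0 in all 30 libraries. Il1r1, the gene named by the knockout label, was not lower in the libraries with that label: its mean normalized count was 231, 284 and 322 at the 3 ages, against 179, 232 and 276 in WT. Directions given for these libraries rest on their label. The labelled libraries were set apart by another gene, Smarcd1, a subunit of a chromatin remodelling complex, at 187 to 316 in the 12 of them and 564 to 919.7 in the WT and germ-free libraries. Of 9 endothelial and stromal markers, the adhesion gene Cdh5 was at 0 in 19 libraries and at most at 10.5, while Pecam1 (1611 to 2824), Egfl7 (2531 to 5560.2), Kdr (82.9 to 937) and Lepr (28.0 to 177) were above 0 in all 30. Of 6 T and NK cell markers, Cd3e was at 0 in 23 libraries and Cd3g in 19, while Cd3d (0.832 to 84.4), Lck (437 to 983), Nkg7 (310.1 to 2179) and Klrb1c (259.8 to 2572) were above 0 in all 30. Libraries differed in Mpo, the myeloperoxidase of granulocyte precursors, from 4.33 to 73276, and 9 libraries stood at 10000 or more. Of these, 6 were 2-month libraries at 20000 or more: WT replicates 2 and 4, IL1R1 KO replicates 1 and 3, and germ-free replicates 1 and 3. The other 3 were WT 2 years replicates 1 and 4 and IL1R1 KO 1 year replicate 2. Erythroid markers, summed over 8 genes, were lowest in WT at 1 year (1313 to 3699.8), against 6196 to 8808 in WT at 2 months and 2662 to 31078 in the 6 remaining groups. A change in the level of a transcript here cannot separate a change in how many sorted cells carry it from a change in RNA per cell.

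**Figure D1:**
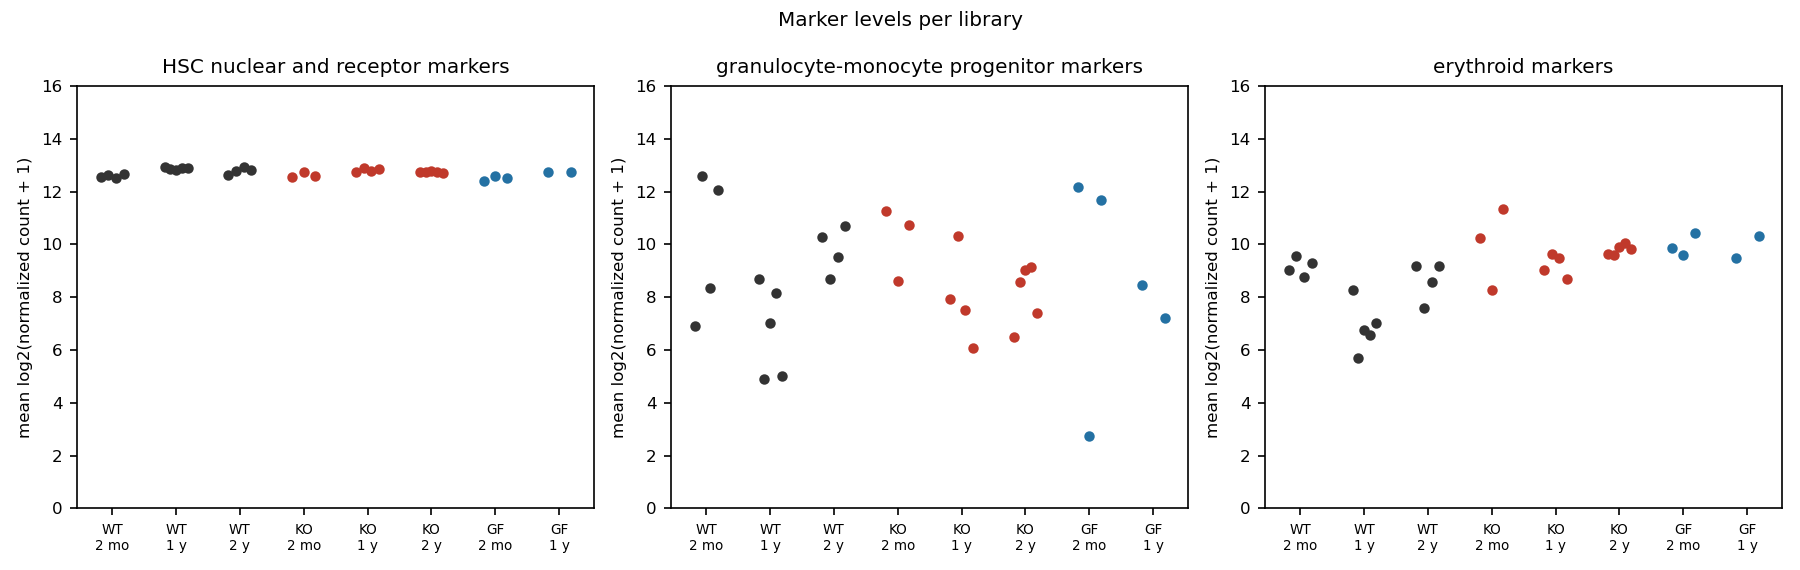
Mean log2(normalized count + 1) of 6 HSC markers, 6 granulocyte-monocyte progenitor markers and 8 erythroid markers in each of the 30 libraries (dots), by group (WT black, IL1R1 KO red, germ-free blue; mo, months; y, years). The HSC markers lie in a narrow band, the progenitor markers spread widely among the 2-month libraries, and the erythroid markers are low in the WT libraries of 1 year.

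Promoter sequences are shown for the 4 genes that were higher in WT HSCs at 1 year than at 2 months. RefSeq (GRCm38.p6) windows of 300 bases, from 250 bases before to 50 after the transcript start, were found for 7 of the 8 genes; the eighth was Ly6a. Each is read 5′ to 3′ on the strand of the gene. Capitals mark matches, on either strand, to 1 of 6 motifs: AGGAAG for ETS factors, AGATAA for GATA factors, TGTGGT for RUNX factors, CAGCTG for the E-box, GGGCGG for the GC box and TATAAA for the TATA box. The windows lie at chr2:155750967-155751266 for Procr, chr1:171766882-171767181 for Slamf1 and chr6:91978715-91979014 for Fgd5, all on the plus strand, and at chr6:125494711-125495010 on the minus strand for Cd9.
Procr: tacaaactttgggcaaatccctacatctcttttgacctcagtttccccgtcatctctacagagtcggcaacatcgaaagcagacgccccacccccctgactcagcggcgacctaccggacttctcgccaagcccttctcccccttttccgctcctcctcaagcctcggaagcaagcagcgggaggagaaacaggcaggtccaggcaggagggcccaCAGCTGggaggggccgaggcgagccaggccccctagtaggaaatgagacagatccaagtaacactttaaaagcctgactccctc
Slamf1: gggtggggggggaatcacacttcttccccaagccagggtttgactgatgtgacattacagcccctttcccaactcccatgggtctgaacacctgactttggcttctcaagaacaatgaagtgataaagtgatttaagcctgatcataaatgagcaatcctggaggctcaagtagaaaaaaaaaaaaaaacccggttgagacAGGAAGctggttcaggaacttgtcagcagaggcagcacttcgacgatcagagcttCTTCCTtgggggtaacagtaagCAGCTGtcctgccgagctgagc
Fgd5: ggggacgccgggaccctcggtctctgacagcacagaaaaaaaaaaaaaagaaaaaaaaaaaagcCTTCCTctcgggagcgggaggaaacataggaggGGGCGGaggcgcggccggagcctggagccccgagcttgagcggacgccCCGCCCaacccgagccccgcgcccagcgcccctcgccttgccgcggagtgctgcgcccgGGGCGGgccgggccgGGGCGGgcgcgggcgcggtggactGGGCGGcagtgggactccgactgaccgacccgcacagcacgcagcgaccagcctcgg
Cd9: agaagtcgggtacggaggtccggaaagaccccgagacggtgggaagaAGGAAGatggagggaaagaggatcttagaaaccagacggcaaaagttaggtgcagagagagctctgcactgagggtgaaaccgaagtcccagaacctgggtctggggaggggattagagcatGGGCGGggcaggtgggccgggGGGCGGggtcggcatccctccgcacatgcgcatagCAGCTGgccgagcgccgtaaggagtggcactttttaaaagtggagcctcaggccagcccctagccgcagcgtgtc

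The E-box CAGCTG was found in 4 of the 7 windows, those of Procr (34 bases before the start), Slamf1 (29 after), Cd9 (25 before) and Robo4 (123 before), and in 16.3% of 32851 mouse windows of the same length. ETS matches stood in the windows of Slamf1, Fgd5, Cd9 and Robo4, and in 35.35% of all windows. In both Slamf1 and Robo4 an ETS match began 49 bases before the start. GC boxes were found in Fgd5 (5 matches), Ctnnal1 (3) and Cd9 (2), and in 35.66% of windows. The Cd27 window held no match to the 6 motifs. None of the 7 windows held the GATA, RUNX or TATA letters, which stood in 11.18%, 16.76% and 13.62% of all windows. The 7 windows ranged in GC content from 49% in Slamf1 to 71.33% in Fgd5, around a median of 52.7% over all windows. A match describes these letters and does not show binding.

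The 8 genes were well expressed. Per kilobase of exon, the mean normalized count over the 30 libraries was highest for Ly6a (4283) and Cd9 (3013), followed by Procr (2547), Cd27 (1963), Slamf1 (581), Robo4 (446), Fgd5 (328) and Ctnnal1 (204). Between 72.6% (Ctnnal1) and 95.5% (Cd9) of tested genes had a lower mean normalized count. The ratio of the highest to the lowest library was 2.82 for Fgd5, 2.79 for Slamf1 and 2.25 for Procr. It was below 2 for the other 5 genes: 1.92 for Robo4, 1.80 for Ly6a, 1.76 for Ctnnal1, 1.74 for Cd27 and 1.52 for Cd9.

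**Figure D2:**
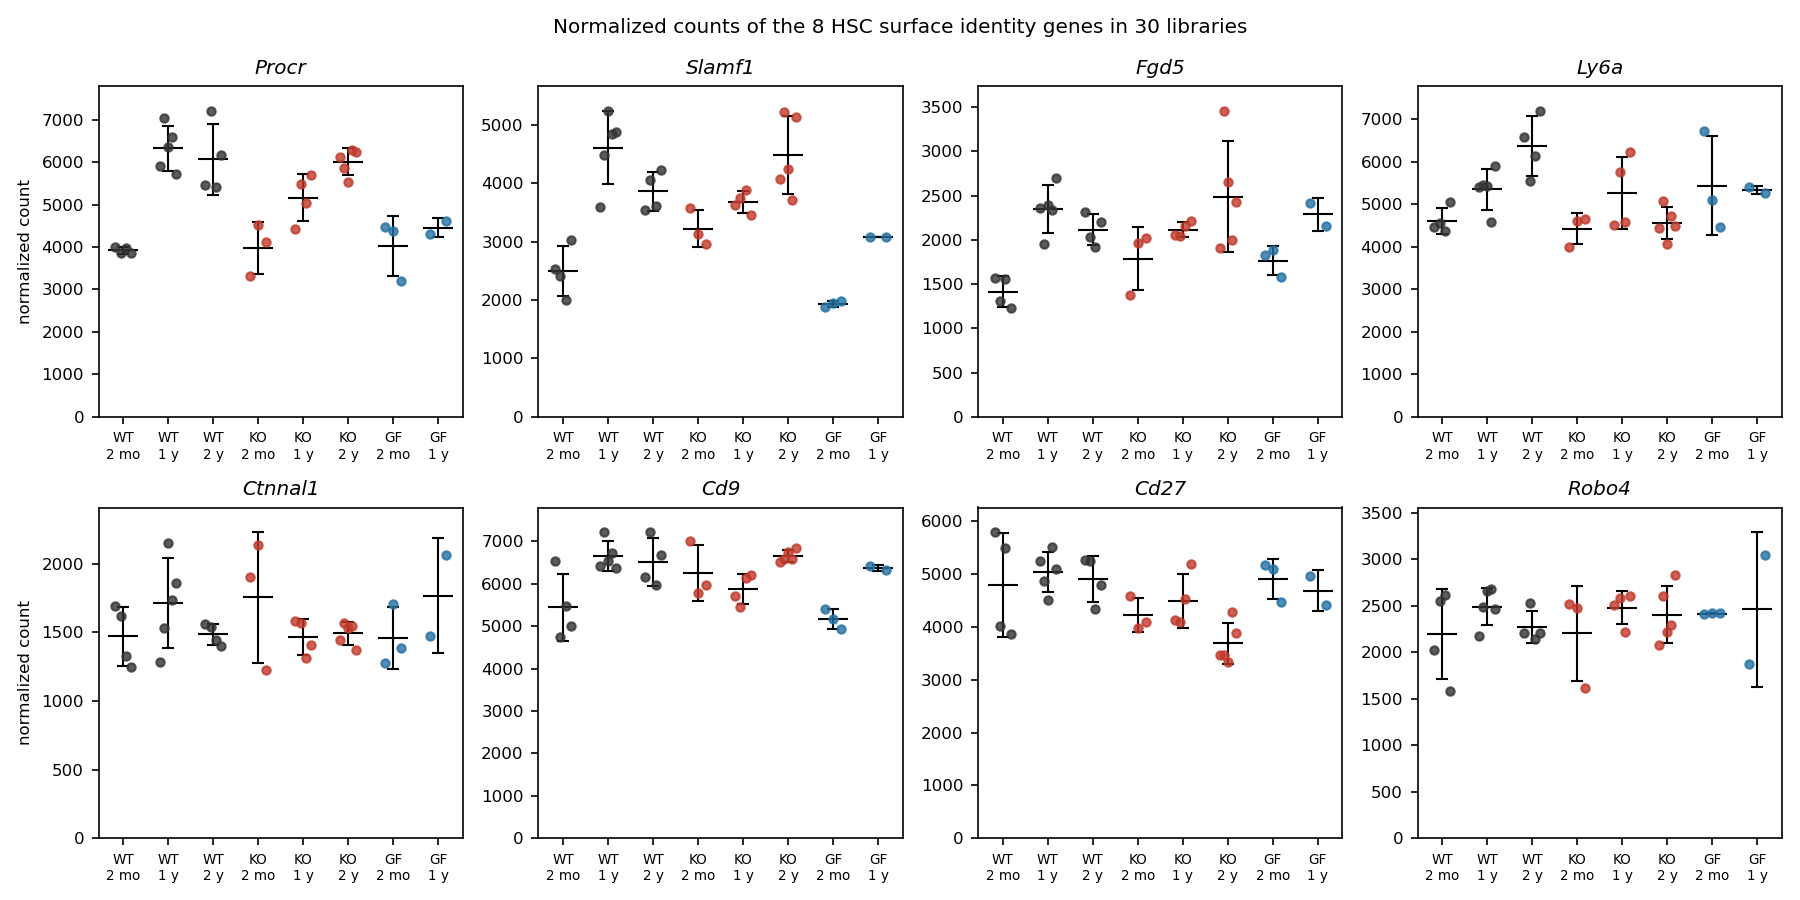
Normalized counts of the 8 genes in each of 30 libraries (dots), with the mean (horizontal mark) and SD (bars) of each group (WT black, IL1R1 KO red, germ-free blue; mo, months; y, years). Procr and Slamf1 stand higher in WT libraries of 1 and 2 years than in those of 2 months, with no overlap, while Ctnnal1 and Robo4 overlap between the groups of each comparison.

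In ageing WT HSCs, Procr, Slamf1 and Fgd5 rose together between 2 months and 1 year, by 1.61, 1.85 and 1.66 fold, and Cd9 rose by 1.23 fold. These were 4 of the 8 genes, where 10.7% of all tested genes passed and 6.12% passed as higher. At 2 years against 2 months Procr, Slamf1 and Fgd5 were again higher, and Ly6a joined them, 4 of 8 against 5.55% of tested genes (3.92% higher). From 1 to 2 years none passed (limma, 2 at an unadjusted p under 0.05, and 0.0118% of tested genes passed). The median log2 change of the 8 was 0.26 at 1 year and 0.36 at 2 years against 2 months, beside 0.01 and 0.0074 over all tested genes. These comparisons share the 2-month libraries.

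In libraries labelled IL1R1 KO, none of the 8 passed at 1 year against 2 months (limma, 1 at an unadjusted p under 0.05), where 2.00% of tested genes did. At 2 years 2 of 8, Procr and Slamf1, were higher (8.02% of tested genes passed, 5.12% as higher). From 1 to 2 years none passed, with 4 at an unadjusted p under 0.05 (0.177% of tested genes). In germ-free libraries 1 of 8, Slamf1, was higher at 1 year than at 2 months (2.10% of tested genes passed, 1.29% as higher). The median log2 change of the 8 was 0.20 at 1 year and 0.12 at 2 years in IL1R1 KO and 0.22 in germ-free libraries.

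Between genotypes or housing at 1 age, 3 of 40 tests of the 8 genes passed, and in each the gene was lower than in WT. Ly6a was lower in libraries labelled IL1R1 KO at 2 years (1.42% of tested genes passed, 0.425% as lower). At 1 year Procr and Slamf1 were lower in germ-free libraries (4.96% of tested genes passed, 3.13% as lower). None of the 8 passed for IL1R1 KO at 2 months or 1 year (3 at an unadjusted p under 0.05 each, and 0.407% and 1.30% of tested genes passed), nor for germ-free at 2 months (1 at an unadjusted p under 0.05, and 0.601% of tested genes passed).

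**Figure D3:**
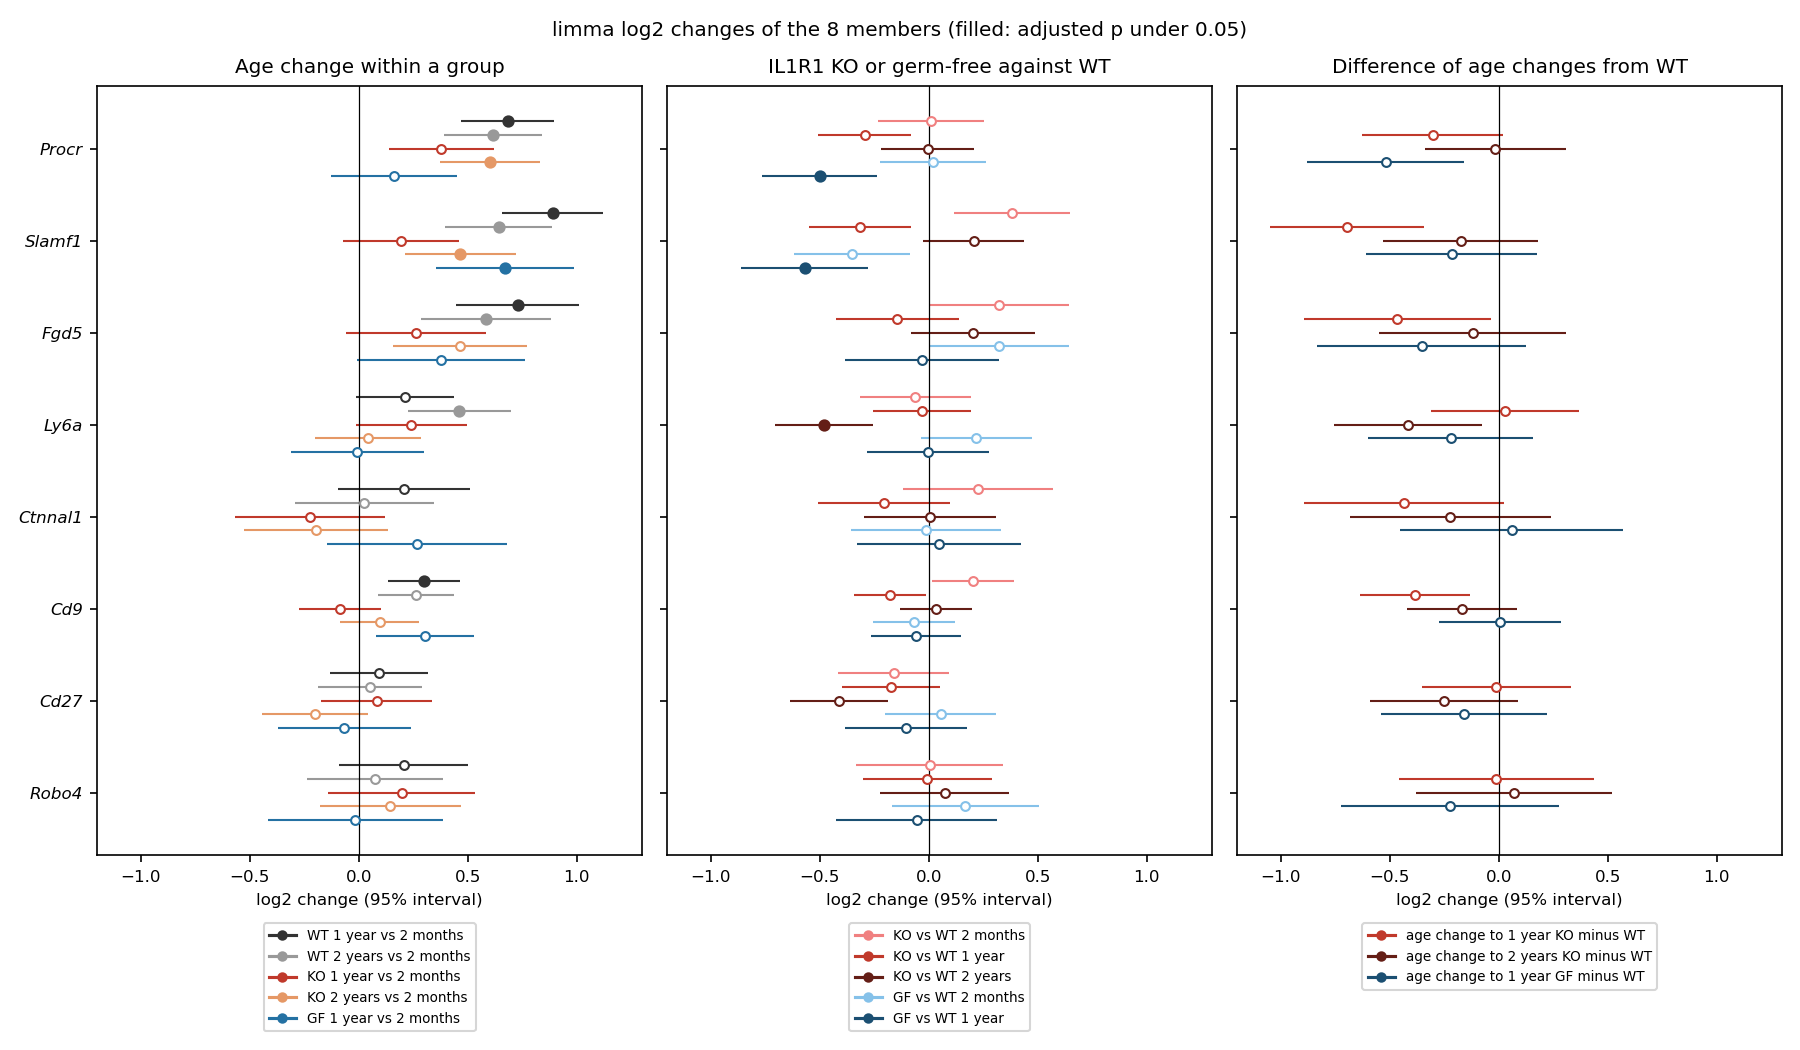
limma log2 changes of the 8 genes with 95% intervals (points and lines; filled points have an adjusted p under 0.05), for the age changes within WT, IL1R1 KO (KO) and germ-free (GF) groups, for IL1R1 KO and germ-free groups against the WT group of equal age, and for the difference of the age change from that of WT. Filled points are found for Procr, Slamf1, Fgd5, Ly6a and Cd9, and none are found among the differences of age changes.

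Procr (ENSMUSG00000027611, chr2:155751117-155755471, GRCm38, GENCODE M21, plus strand) encodes the receptor that presents protein C for activation. Its normalized counts in WT were 4009, 3865, 3982 and 3851 at 2 months. They were 5903, 7033, 6365, 6594 and 5708 at 1 year and 5465, 7216, 5407 and 6172 at 2 years. The 4 young libraries lay within a few percent of one another, and each library of the older groups stood above them. The group means were 3927 ± 80.3 (SD, n = 4), 6321 ± 532 (SD, n = 5) and 6065 ± 842 (SD, n = 4). The log2 change by limma was 0.68 ± 0.10 (SE, adjusted p = 4.91e-05) at 1 year and 0.62 ± 0.11 (SE, adjusted p = 4.96e-04) at 2 years, with no overlap of groups (a rise without overlap was seen in 6.89% and 5.31% of tested genes). With the erythroid marker level of each library as a covariate, the call at 1 year ended (0.45 ± 0.14 SE, adjusted p = 0.0829; log2 change of 0.45 to 0.72 over 25 other settings, adjusted p from 3.05e-05 to 0.0829). The call at 2 years was kept in all 24 settings tried.

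In libraries labelled IL1R1 KO, Procr stood at 3321, 4520.3 and 4115 at 2 months and 4428, 5496, 5047 and 5687 at 1 year. It reached 6125, 5850.1, 5532, 6288 and 6245 at 2 years. The youngest and oldest of these groups did not overlap (8.83% of tested genes rose without overlap), and the libraries of 1 year overlapped both. The change was 0.60 ± 0.11 (SE, adjusted p = 8.21e-04) at 2 years and 0.38 ± 0.12 (SE, adjusted p = 0.0950) at 1 year (interval 0.14 to 0.62), so the second did not pass. Without the 6 high-Mpo libraries, when IL1R1 KO 2 months replicate 2 (4520.3) stands alone and is assumed to vary like the other groups, the 2-year change was 0.41 (adjusted p = 0.177), and without the 9 it had adjusted p = 0.194 (log2 change of 0.41 to 0.70 over 25 other settings, adjusted p from 5.18e-04 to 0.194).

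Germ-free libraries held 4480.1, 4373 and 3209.9 of Procr at 2 months and 4295 and 4621 at 1 year. Both 1-year values lay below each WT library of that age and beside the germ-free values of 2 months. The age change of 0.16 ± 0.14 (SE, adjusted p = 0.645) had an interval of -0.13 to 0.45. Against WT at 1 year the log2 difference was -0.50 ± 0.13 (SE, adjusted p = 0.0239), without overlap, as in 13.1% of tested genes for a group of 2 libraries. The call ended without WT 1 year replicate 2 (adjusted p = 0.0543) or 4 (0.0507), without germ-free 1 year replicate 1 (0.221) or 2 (0.0586), and with array quality weights (0.0564). With the erythroid covariate the difference was -0.19 ± 0.17 (SE, adjusted p = 0.845; log2 change of -0.55 to -0.19 over 21 other settings, adjusted p from 0.0157 to 0.845). Of 8 erythroid markers, 6 were higher in germ-free than in WT libraries of 1 year (4.96% of tested genes passed in either direction). Summed over the 8, they stood at 7896 to 15842 against 1313 to 3699.8.

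The order of the 8 groups by mean Procr ran from WT at 1 year down through WT and IL1R1 KO at 2 years, IL1R1 KO at 1 year, germ-free at 1 year and the 3 groups of 2 months. Neighbours in this order differed by more than the larger of their SDs at 2 steps, above and below IL1R1 KO at 1 year. The 3 groups of 2 months had means from 3927 to 4021. At 1 year the difference between IL1R1 KO and WT was -0.29 ± 0.10 (SE, adjusted p = 0.205), with each IL1R1 KO library below each WT library, as in 3.33% of tested genes.

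Of 7 tested genes of the protein C pathway, Procr and F2rl3 were called more than once. F2rl3, the thrombin receptor PAR4, went from 3303 to 6431 in WT at 1 year (log2 0.97 ± 0.16 SE, adjusted p = 1.28e-04) and from 3700.1 to 9129 in IL1R1 KO at 2 years (log2 1.30 ± 0.17 SE, adjusted p = 1.10e-05). It was also higher in IL1R1 KO than in WT at 2 years (log2 0.83 ± 0.16 SE, adjusted p = 0.00448), where Procr was not (-0.01, interval -0.22 to 0.21), and below WT in germ-free libraries of 1 year (log2 -0.69 ± 0.20 SE, adjusted p = 0.0404). Thbd, thrombomodulin, was the third gene of the list to pass in IL1R1 KO at 2 years. The list's median log2 change was 0.29 in WT at 1 year and 0.60 in IL1R1 KO at 2 years, beside 0.01 and 0.0027 over all tested genes. The list includes Procr, whose own change is the median in IL1R1 KO at 2 years.

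Slamf1 (ENSMUSG00000015316, chr1:171767127-171801184, plus strand) had the largest log2 change among the 96 tests of the 8 genes between groups, that of WT at 1 year. Its WT counts were 2528, 2411, 2008 and 3037 at 2 months. They were 3595, 4483, 5249, 4849 and 4882 at 1 year and 3541, 4065, 3620.3 and 4234 at 2 years. Each WT library of 1 or 2 years stood above the highest of 2 months. The means were 2496 ± 424 (SD, n = 4), 4612 ± 629.6 (SD, n = 5) and 3865 ± 337 (SD, n = 4), and the log2 changes 0.89 ± 0.11 (SE, adjusted p = 3.80e-06) and 0.64 ± 0.12 (SE, adjusted p = 9.19e-04). Both calls were kept in each setting tried, 25 for the first and 24 for the second, including those without the high-Mpo libraries and with the erythroid covariate (0.80 and 0.62). The step from 1 to 2 years was -0.25 ± 0.11 (SE), which did not pass (adjusted p = 1.00).

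Libraries labelled IL1R1 KO held 3583, 3141 and 2955 of Slamf1 at 2 months. They held 3638, 3748, 3885 and 3455 at 1 year and 4078, 5229, 4255, 3719 and 5137 at 2 years. The IL1R1 KO libraries began high, 2 of 3 above each WT library of 2 months, and those of 1 year overlapped them. The change was 0.19 ± 0.13 (SE, adjusted p = 0.540) at 1 year, with an interval of -0.07 to 0.46, and 0.47 ± 0.12 (SE, adjusted p = 0.0171) at 2 years. The 2-year call ended without IL1R1 KO 2 months replicate 2 (adjusted p = 0.0606) or 3 (0.0885), without IL1R1 KO 2 years replicate 2 (0.0501), and without the 6 or 9 high-Mpo libraries, which leaves replicate 2 as the 1 library of 2 months, assumed to vary like the other groups (0.179 and 0.207; log2 change of 0.41 to 0.54 over 25 other settings, adjusted p from 0.00889 to 0.207). Against WT at 1 age, Slamf1 in these libraries stood at 0.38 ± 0.13 (SE, adjusted p = 0.285) at 2 months, -0.31 ± 0.11 (SE, adjusted p = 0.222) at 1 year and 0.21 ± 0.11 (SE, adjusted p = 0.523) at 2 years, none of which passed.

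Germ-free libraries held 1883, 1942 and 1977 of Slamf1 at 2 months and 3084 and 3081 at 1 year. The first is the lowest group of the 8, and the pair of 1 year lay close together (SD 2.63). The age change was 0.67 ± 0.16 (SE, adjusted p = 0.0168), and the groups did not overlap, as in 13.9% of tested genes. The call ended without germ-free 1 year replicate 1 (adjusted p = 0.107) or 2 (0.0807), with array quality weights (0.0862), with only the 2 groups in the fit (0.156) and without the 6 or 9 high-Mpo libraries, which again leaves replicate 2 alone at 2 months (0.0898 and 0.106), with a log2 change of 0.65 to 0.70 over 21 other settings, adjusted p from 0.00639 to 0.156. Against WT, Slamf1 was lower at 1 year, with a log2 difference of -0.57 ± 0.14 (SE, adjusted p = 0.0193), and stood at -0.35 ± 0.13 (SE, adjusted p = 0.324) at 2 months, in both cases below each WT library (3.74% of tested genes at 2 months). The 1-year call ended without germ-free replicate 1 or 2 (log2 difference of -0.57 in both fits), each of which leaves 1 library in that group. It also ended with the erythroid covariate (-0.44 ± 0.21 SE, adjusted p = 0.643; log2 change of -0.66 to -0.44 over 21 other settings, adjusted p from 0.00368 to 0.643).

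In order of mean, Slamf1 was highest in WT at 1 year and IL1R1 KO at 2 years, then in WT at 2 years and IL1R1 KO at 1 year, and lower in IL1R1 KO at 2 months, germ-free at 1 year, WT at 2 months and germ-free at 2 months. The gap to the next group exceeded the larger SD below IL1R1 KO at 1 year, below germ-free at 1 year and below WT at 2 months. The other 4 gaps, the first 3 included, did not exceed it.

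Of 10 tested SLAM family genes, 3 rose and 2 fell in WT at 1 year, beside 10.7% of all tested genes that passed. Cd48, whose absence marks HSCs in sorting, went from 699 to 29.3 (log2 -3.72 ± 0.84 SE, adjusted p = 0.00389), and Cd244a, the receptor for CD48, from 137 to 43.3 (log2 -1.62 ± 0.52 SE, adjusted p = 0.0446). Cd84 and Slamf8 rose with Slamf1. In IL1R1 KO at 2 years the family again had Slamf1 higher and Cd48 (log2 -3.38 ± 0.91 SE, adjusted p = 0.0194) and Cd244a (log2 -2.12 ± 0.57 SE, adjusted p = 0.0184) lower. In WT at 2 years and in germ-free libraries Slamf1 was the 1 member called. The family's median log2 change was 0.34 in WT at 1 year and -0.29 in IL1R1 KO at 2 years.

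Fgd5 (ENSMUSG00000034037, chr6:91978878-92076004, plus strand) overlaps in its span 4930466I24Rik on the minus strand and Gm44095 on the plus strand. Whether they share exon sequence was not examined. The protocol does not mark strand, and reads of any stretch that they share may not be told apart. WT libraries held 1574, 1307, 1557 and 1226 at 2 months. They held 2365, 1948, 2397, 2334 and 2698 at 1 year and 2314, 2033, 1920.4 and 2197 at 2 years. Each older WT library exceeded each young one. The means were 1416 ± 176 (SD, n = 4), 2348 ± 267 (SD, n = 5) and 2116 ± 174 (SD, n = 4), with log2 changes of 0.73 ± 0.14 (SE, adjusted p = 6.77e-04) at 1 year and 0.58 ± 0.15 (SE, adjusted p = 0.0138) at 2 years. The erythroid covariate, whose level did not overlap between WT at 2 months and 1 year, gave a 1-year change of 0.72 ± 0.20 (SE). The estimate hardly moved and the SE rose from 0.14, which ended the first call (adjusted p = 0.0545; log2 change of 0.58 to 0.80 over 25 other settings, adjusted p from 4.86e-04 to 0.0545). The second was lost when WT 2 months replicate 4 was left out (adjusted p = 0.0585), as well as the 6 or the 9 high-Mpo libraries, when it was 0.43 (adjusted p = 0.193) and 0.34 (0.474; log2 change of 0.34 to 0.64 over 24 other settings, adjusted p from 0.0108 to 0.474).

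Libraries labelled IL1R1 KO held 1375, 1964 and 2022 of Fgd5 at 2 months and 2052, 2041, 2154 and 2213 at 1 year. At 2 years they spread widely, at 1906, 3461, 2649, 1996 and 2429. The 1-year libraries all lay above those of 2 months, with 2041 as the lowest against 2022 as the highest of the young group (6.06% of tested genes rose without overlap), while the 2-year group held both the highest Fgd5 value of the series and 2 values within the range of the young group. The change was 0.26 ± 0.16 (SE, adjusted p = 0.481) at 1 year and 0.46 ± 0.15 (SE, adjusted p = 0.0539) at 2 years, and neither passed, although the second passed without IL1R1 KO 2 months replicate 3 (0.0432), without IL1R1 KO 2 years replicate 1 (0.0237) or 4 (0.0316), with a filter at 50 (0.0452) and with array quality weights (0.0488). Germ-free libraries held 1826, 1885 and 1582 at 2 months and 2419 and 2157 at 1 year. At 2 months each germ-free library lay above each WT library, a difference of 0.32 ± 0.16 (SE, adjusted p = 0.530) that did not pass (3.89% of tested genes rose without overlap). The germ-free age change of 0.38 ± 0.19 (SE, adjusted p = 0.344) did not pass either.

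WT at 2 months was the lowest group for Fgd5, and the step to it was the 1 gap in the order of means that exceeded the larger SD. Of 7 genes, the FGD family with its target Cdc42, Fgd2 fell in WT at 1 year (log2 -0.67 ± 0.12 SE, adjusted p = 2.48e-04), in WT at 2 years (log2 -0.44 ± 0.12 SE, adjusted p = 0.0276) and in IL1R1 KO at 2 years (log2 -0.48 ± 0.13 SE, adjusted p = 0.0155). Fgd3 rose in WT at 1 year (log2 0.48 ± 0.15 SE, adjusted p = 0.0400) and 2 years (log2 0.57 ± 0.16 SE, adjusted p = 0.0313) and was lower in germ-free than in WT libraries of 1 year (log2 -0.69 ± 0.19 SE, adjusted p = 0.0336). Fgd6 was the third of the list to rise in WT at 2 years. Fgd2 and Fgd3 encode exchange factors of the same family, and they moved in opposite directions in WT.

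Ly6a (ENSMUSG00000075602, chr15:74994877-74998031, minus strand) lies among other Ly6 genes of similar sequence, and the authors' read assignment could split reads between them. WT libraries held 4472, 4549.8, 4363 and 5065 at 2 months. They held 5418, 5461, 5427, 4573 and 5900.3 at 1 year and 6588, 5556, 6127 and 7207 at 2 years. The 2-year libraries lay above those of 2 months, and those of 1 year overlapped both. The means were 4612 ± 311 (SD, n = 4), 5356 ± 482 (SD, n = 5) and 6369.6 ± 700.1 (SD, n = 4). The log2 change of 0.46 ± 0.12 (SE, adjusted p = 0.0139) at 2 years passed, and that of 0.21 ± 0.11 (SE, adjusted p = 0.240) at 1 year did not. The 2-year call ended without WT 2 years replicate 4 (adjusted p = 0.0646) or the 9 high-Mpo libraries (0.158; log2 change of 0.40 to 0.53 over 24 other settings, adjusted p from 0.0109 to 0.158).

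In libraries labelled IL1R1 KO, Ly6a stood at 4003, 4614 and 4657 at 2 months and 4516, 5756, 4589.6 and 6226 at 1 year. It stood at 4449.6, 5072, 4055, 4727 and 4497 at 2 years. The 1-year group split into 2 low and 2 high libraries, and the oldest group overlapped the youngest. The age changes of 0.24 ± 0.12 (SE, adjusted p = 0.383) and 0.04 ± 0.12 (SE, adjusted p = 0.891) did not pass. At 2 years each IL1R1 KO library lay below each WT library, with means of 4559.9 ± 375 (SD, n = 5) and 6369.6 ± 700.1 (SD, n = 4). The log2 difference was -0.48 ± 0.11 (SE, adjusted p = 0.0199), and 2.12% of tested genes were lower without overlap. The call ended without WT 2 years replicate 1 (adjusted p = 0.0550) or 4 (0.0963), without IL1R1 KO 2 years replicate 3 (0.0702) and without the 9 high-Mpo libraries (-0.36, 0.184). It also ended with the erythroid (-0.50 ± 0.12 SE, 0.0563) or Fos covariate (-0.46 ± 0.13 SE, 0.135; log2 change of -0.54 to -0.36 over 24 other settings, adjusted p from 0.00544 to 0.184). Fos, an immediate early gene, was at 138574 to 189922 in those 5 IL1R1 KO libraries and at 6004 to 111793 in the WT libraries of 2 years.

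Germ-free libraries held 6728, 5111 and 4475 of Ly6a at 2 months and 5400.2 and 5262 at 1 year. The values 6728 and 5111 stood above each WT library of 2 months, and both 1-year values lay within the WT range of that age. By limma the log2 difference from WT was 0.22 ± 0.12 (SE, adjusted p = 0.621) at 2 months and -0.002 ± 0.14 (SE, adjusted p = 0.999) at 1 year. Neither passed. No gap in the order of the 8 group means of Ly6a exceeded the larger SD. Of 9 Ly6 family genes, Ly6e rose in WT at 1 year (log2 0.30 ± 0.09 SE, adjusted p = 0.0292) and 2 years (log2 0.36 ± 0.10 SE, adjusted p = 0.0231) and in IL1R1 KO at 2 years (log2 0.50 ± 0.10 SE, adjusted p = 0.00142), where Ly6a stood at 0.04. Ly6g, a neutrophil marker, was the 1 member to fall, in WT at 1 year.

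Cd9 (ENSMUSG00000030342, chr6:125460266-125494791, minus strand) is overlapped in its span by Gm26728 and Gm28809 on the plus strand. Reads of any exon sequence that they share may not be told apart, and such sharing was not examined. WT libraries held 6539, 4742, 5477 and 5011 at 2 months. They held 6418, 7218, 6541, 6715 and 6365 at 1 year and 6160.5, 7218, 5971 and 6680.0 at 2 years. Young replicate 1 lay within the range of the older libraries, and the other 3 below it. The means were 5442 ± 792 (SD, n = 4), 6651 ± 344 (SD, n = 5) and 6507 ± 560.4 (SD, n = 4). The log2 change of 0.30 ± 0.08 (SE, adjusted p = 0.0156) at 1 year passed, and that of 0.26 ± 0.09 (SE, adjusted p = 0.0663) at 2 years did not. The second passed with upper-quartile scaling (adjusted p = 0.0478), without WT 2 months replicate 1 (0.36, 0.00730) and without WT 2 years replicate 3 (0.0443). Leaving out replicate 2 (adjusted p = 0.0840) or 4 (0.0659) of WT at 2 months, the 2 high-Mpo libraries of that group, ended the 1-year call, and without the 6 it was 0.15 (0.400). It also ended without the 9 (0.413), with the progenitor (0.0903) or erythroid marker covariate (0.20 ± 0.11 SE, 0.465), and with only the 2 groups in the fit (0.0579; log2 change of 0.15 to 0.39 over 25 other settings, adjusted p from 0.00137 to 0.465).

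Libraries labelled IL1R1 KO held 6998, 5775 and 5962 of Cd9 at 2 months and 5708, 5446, 6146 and 6198 at 1 year. They held 6505, 6575, 6752, 6583 and 6843 at 2 years, all above the 4 libraries of 1 year. The steps from 2 months were -0.09 ± 0.09 (SE, adjusted p = 0.753) and 0.10 ± 0.09 (SE, adjusted p = 0.603), and that from 1 to 2 years was 0.18 ± 0.08 (SE, adjusted p = 0.643). None passed, and a rise without overlap from 1 to 2 years was seen in 2.09% of tested genes. Germ-free libraries held 5401, 5157 and 4932 at 2 months and 6417 and 6329 at 1 year, without overlap, and the change of 0.30 ± 0.11 (SE, adjusted p = 0.154) did not pass. No gap between neighbours in the order of the 8 means exceeded the larger SD.

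Of 22 tetraspanins, 3 rose and 1 fell in WT at 1 year, where 10.7% of all tested genes passed and 6.12% passed as higher. Tspan13 rose by 0.29 ± 0.07 (SE, adjusted p = 0.00536) and again at 2 years (log2 0.28 ± 0.07 SE, adjusted p = 0.0163) and in germ-free libraries (log2 0.38 ± 0.09 SE, adjusted p = 0.0268). Tspan14 rose in WT at 1 year (log2 0.49 ± 0.12 SE, adjusted p = 0.00536) and was lower in germ-free than in WT libraries of that age (log2 -0.58 ± 0.14 SE, adjusted p = 0.0173). Cd37, a tetraspanin of B cells and other leukocytes, was lower in the older group in each of the 5 comparisons with 2 months, from -0.57 ± 0.15 (SE, adjusted p = 0.0131) in WT at 1 year to -0.93 ± 0.20 (SE, adjusted p = 0.0102) in germ-free libraries. Among platelet markers, Gp9 and Pf4 were above 0 in all 30 libraries, and none of 6 passed in WT at either age (median summed level 9103 at 2 months, 11688 at 1 year and 11752 at 2 years), and their part in the Cd9 values was not tested.

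Cd27 (ENSMUSG00000030336, chr6:125232622-125237010, minus strand) lies 223 kb from Cd9 and overlaps Mir8113 and, on the plus strand, Vamp1, with the same limit. WT libraries held 5791, 4016, 5487 and 3871 at 2 months. They held 5243, 4861, 4504, 5509.6 and 5085 at 1 year and 5259, 5243, 4328 and 4780.2 at 2 years. The young group split into 2 high and 2 low libraries, and the older libraries, from 4328 to 5509.6, lay between the lowest and the highest of them. The age changes in WT were 0.09 ± 0.11 (SE, adjusted p = 0.672) and 0.05 ± 0.12 (SE, adjusted p = 0.875), with intervals of -0.13 to 0.32 and -0.18 to 0.29. The 2 low young libraries, at 3871 and 4016, were the 2 with high Mpo, where Cd9 (4742 and 5011) and Fgd5 (1226 and 1307) were also below the other pair. In the IL1R1 KO and germ-free groups of 2 months the Cd27 values of the high-Mpo libraries (4097 to 4590.2 and 4464 to 5159) reached as high as the remaining library (3982 and 5095).

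In libraries labelled IL1R1 KO, Cd27 stood at 4590.2, 3982 and 4097 at 2 months and 4128, 4094, 4522 and 5193 at 1 year. It stood at 3467, 3462, 3333, 4284 and 3882 at 2 years. The oldest group was the lowest of the 8, and the gap above it was the 1 that exceeded the larger SD. Each of its libraries lay below each WT library of 2 years, with means of 3686 ± 394 (SD, n = 5) and 4903 ± 443 (SD, n = 4). The difference of -0.41 ± 0.11 (SE, adjusted p = 0.0519) did not pass over all genes. It passed in 7 of 24 other settings, those with a filter at 50 (adjusted p = 0.0432), upper-quartile (0.0482) or library-sum scaling (0.0369), array quality weights (0.00515) or the progenitor covariate (0.0333), and without WT 2 years replicate 3 (0.0327) or IL1R1 KO 2 years replicate 4 (0.0388; log2 change of -0.47 to -0.38 over 24 other settings, adjusted p from 0.00515 to 0.235). Within IL1R1 KO the step from 1 to 2 years was -0.28 ± 0.11 (SE, adjusted p = 0.521) and that from 2 months to 2 years -0.20 ± 0.12 (SE, adjusted p = 0.368).

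Germ-free libraries held 5159, 5095 and 4464 of Cd27 at 2 months and 4959 and 4410.4 at 1 year, with log2 differences from WT of 0.05 ± 0.12 and -0.10 ± 0.14 (SE; intervals -0.20 to 0.31 and -0.38 to 0.18). Of 8 tested genes of the CD27 pathway, none passed in WT with age. Nfkb2, a subunit of the alternative NF-kB pathway, rose in IL1R1 KO at 2 years, and its partner Relb fell in germ-free libraries at 1 year. These 2 were named because they were the calls of the list outside Cd27 itself, after their values were seen.

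Robo4 (ENSMUSG00000032125, chr9:37401897-37415115, plus strand) and Ctnnal1 (ENSMUSG00000038816, chr4:56810935-56865188, minus strand) passed in none of 12 comparisons by limma, with none at an unadjusted p under 0.05. The lowest group mean of Robo4 was 2194 ± 485 (SD, n = 4), for WT of 2 months, and the highest 2489.9 ± 199.7 (SD, n = 5), for WT of 1 year. Its libraries ranged over 1585 to 2620.3 in WT at 2 months, 2177 to 2675 at 1 year and 2144 to 2532 at 2 years. In IL1R1 KO they ranged over 1611 to 2523, 2223 to 2603 and 2074 to 2828 by age. Germ-free libraries of 2 months stood at 2410.1 to 2420.2, and the 2 of 1 year stood at 1874 and 3049, on either side of them. The WT age changes of 0.21 ± 0.14 and 0.08 ± 0.15 (SE) had intervals of -0.09 to 0.50 and -0.24 to 0.39, so changes of the size seen for Slamf1 at 1 year lay outside them.

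Ctnnal1 ranged over 1249 to 1693 in WT at 2 months, 1284 to 2151 at 1 year and 1399.5 to 1562 at 2 years. In IL1R1 KO it ranged over 1224 to 2140.0, 1313 to 1582 and 1375 to 1571 by age, and in germ-free libraries over 1279 to 1711 at 2 months and 1473 to 2064 at 1 year. The spread was wide at 2 months in IL1R1 KO (SD 476) and narrow at 2 years in both WT (77.1) and IL1R1 KO (82.0). The age change was 0.21 ± 0.15 in WT and -0.22 ± 0.17 in IL1R1 KO at 1 year (SE; intervals -0.09 to 0.51 and -0.57 to 0.12). No gap between neighbouring group means exceeded the larger SD for either gene. Of 9 ROBO and SLIT genes 1 passed in 1 comparison, Slit3, which fell in WT at 2 years and is named after its value was seen. None of the 6 tested alpha-catenin relatives passed in any comparison.

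Whether the age change itself differed from that of WT was tested for each gene. Of 32 such tests none passed (limma, 7 at an unadjusted p under 0.05), and between 0.00% and 0.395% of tested genes passed in the 4 comparisons (0.0354% to 1 year and 0.395% to 2 years in IL1R1 KO, 0.0177% for the step from 1 to 2 years, and 0.00% in germ-free). Slamf1 had the smallest adjusted p: its rise to 1 year was smaller in IL1R1 KO than in WT by a log2 difference of -0.70 ± 0.17 (SE, adjusted p = 0.134), with an interval of -1.05 to -0.34. Cd9 (log2 -0.38 ± 0.12 SE, adjusted p = 0.247) and Fgd5 (log2 -0.47 ± 0.21 SE, adjusted p = 0.443) also stood below 0 in that test. For the step from 1 to 2 years the sign of Slamf1 was the opposite (log2 0.52 ± 0.16 SE, adjusted p = 0.446), and Ly6a stood at -0.45 ± 0.15 (SE, adjusted p = 0.578). In germ-free against WT the difference of the age change was -0.52 ± 0.18 (SE, adjusted p = 0.280) for Procr and -0.22 ± 0.19 (SE, adjusted p = 0.736) for Slamf1. These tests share libraries with the comparisons above, and calls in one group and not in another are not shown to differ.

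Placing IL1R1 KO 1 year replicate 1, whose age label gives 2 months against its title's 1 year, with the 2-month group changed none of the calls of the 8 genes. The Procr changes of IL1R1 KO were then 0.41 at 1 year (adjusted p = 0.113) and 0.56 at 2 years (0.00114).

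Other surface genes of HSCs were described from a list of 21. In WT 10 rose and none fell at 1 year (6.12% of tested genes passed as higher), and 7 rose at 2 years (3.92%). In IL1R1 KO 4 rose at 1 year (2.00% of tested genes passed in either direction) and 7 at 2 years (5.12% as higher). In germ-free libraries 4 rose (1.29% as higher). The median log2 change of the list was 0.31 in WT at 1 year, 0.23 at 2 years and 0.13 in IL1R1 KO at 2 years, beside 0.01, 0.0074 and 0.0027 over all genes tested. Itgb3, an integrin of platelets and HSCs, was higher in each of these 5 comparisons, from 1460.0 to 4790.4 in WT at 1 year (log2 1.71 ± 0.13 SE, adjusted p = 2.31e-10). It was lower in IL1R1 KO than in WT at 1 year (log2 -0.81 ± 0.13 SE, adjusted p = 5.39e-04) and higher in germ-free than in WT libraries of 2 months (log2 0.75 ± 0.15 SE, adjusted p = 0.00750). Alcam, an adhesion molecule, rose in WT (log2 1.50 ± 0.18 SE, adjusted p = 1.78e-06) and IL1R1 KO (log2 1.15 ± 0.21 SE, adjusted p = 0.00247) at 1 year, and Clec1a, a C-type lectin, in WT (log2 1.28 ± 0.18 SE, adjusted p = 1.94e-05) and germ-free libraries (log2 1.50 ± 0.25 SE, adjusted p = 5.73e-04). At 1 year Esam, Eng and Cd81 were lower in germ-free than in WT libraries.

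Of 10 surface genes of progenitors, 6 fell and 1 rose in WT at 1 year (10.7% of tested genes passed), 2 fell and 1 rose at 2 years (5.55%), and in IL1R1 KO at 2 years 4 fell and 1 rose (8.02%). Flt3, a cytokine receptor of multipotent progenitors that HSCs lack, went from 1066 to 397 in WT at 1 year (log2 -1.46 ± 0.34 SE, adjusted p = 0.00483), and Cd34, a sialomucin of progenitors, from 6989 to 4897 (log2 -0.49 ± 0.14 SE, adjusted p = 0.0265). In germ-free against WT libraries of 1 year Flt3 was higher (log2 2.02 ± 0.42 SE, adjusted p = 0.00640). Csf3r, the G-CSF receptor, was the gene of the list that rose in WT (log2 0.38 ± 0.12 SE, adjusted p = 0.0449) and was lower in germ-free libraries (log2 -0.71 ± 0.15 SE, adjusted p = 0.00799). The list's median was -1.82 in WT at 1 year and -1.21 at 2 years. Granulocyte-monocyte progenitor markers summed to 7323 to 116699 in WT at 2 months and 13400 to 16329.8 at 1 year, with 1 of 6 called, Prtn3, which was higher. Their part in the progenitor surface genes was not tested.

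Of 18 nuclear genes of HSCs, 4 rose and 1 fell in WT at 1 year, with a median log2 change of 0.24, where 10.7% of tested genes passed. At 2 years 1 rose in WT (median 0.16, 5.55% of tested genes) and 3 rose and 1 fell in IL1R1 KO (median 0.14, 8.02%). In germ-free libraries 2 rose (median 0.08, 2.10%), and in IL1R1 KO at 1 year none passed (2.00%). Hoxb5, a marker of long-term HSCs, rose in WT at 1 year (log2 0.52 ± 0.16 SE, adjusted p = 0.0298) and in germ-free libraries (log2 0.81 ± 0.21 SE, adjusted p = 0.0400). Hoxa9 fell in WT at 1 year (log2 -0.30 ± 0.09 SE, adjusted p = 0.0261) and in IL1R1 KO at 2 years (log2 -0.32 ± 0.10 SE, adjusted p = 0.0386).

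Across the 30 libraries the 8 genes fell into patterns that changed once the group means were removed. Procr and Slamf1 had a Pearson r of 0.75 in log2 values, Slamf1 and Cd9 0.73, Procr and Fgd5 0.65, and Slamf1 and Fgd5 0.64. After subtraction of the group means these were -0.04, 0.14, 0.11 and 0.08, so these pairs were alike in their differences between groups and little alike among the libraries of a group. Cd9 and Cd27 did the reverse, with 0.09 over all libraries and 0.66 within groups. Ctnnal1 and Robo4 stood at 0.52 and 0.61. Slamf1 and Cd27 stood at -0.29 and -0.33. These values describe 30 libraries that share 1 normalization, and no test is attached to them.

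**Figure D4:**
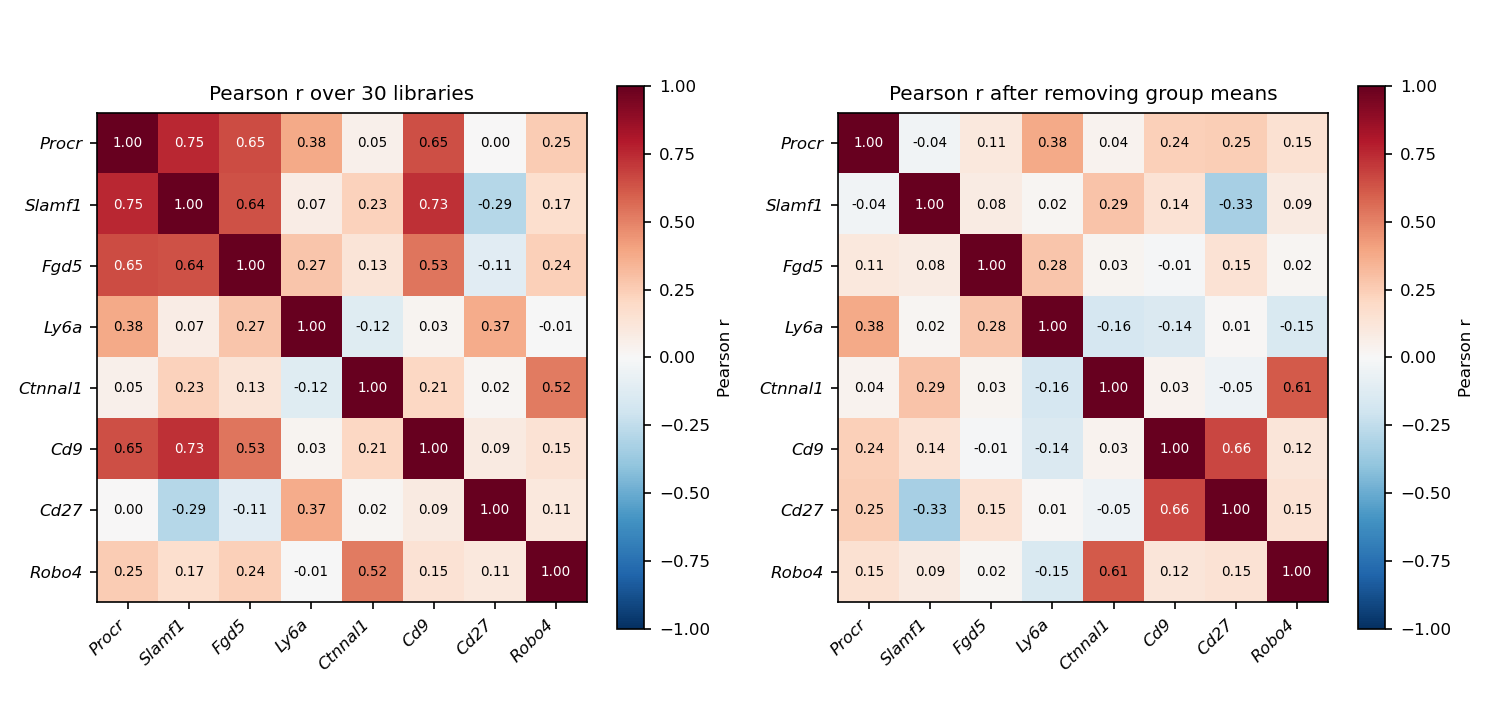
Pearson r between the log2 values of each pair of the 8 genes over 30 libraries (left) and after the mean of each group was subtracted (right), from -1 (blue) to 1 (red). The block of Procr, Slamf1, Fgd5 and Cd9 on the left is absent on the right, where Cd9 with Cd27 (0.66) and Ctnnal1 with Robo4 (0.61) stand out.

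Other genes were ranked by the Pearson r of their log2 values with each of the 8 over the 30 libraries, with no test. The 3 highest for Slamf1 were Ptger3 (0.94), Sdcbp (0.94) and Exoc3l2 (0.91), with Rin3 at the other end (-0.89). For Procr they were Rbm19 (0.91), Ctsw (0.90) and Npdc1 (0.89), with Mki67, a marker of dividing cells, at -0.90 (-0.64 within groups). Fgd5 was most like H2-Ab1 (0.81), Cldn5 (0.81) and Fetub (0.80), with Serpinb1a at -0.86. Cd9 was most like Slc14a1 (0.84), Sdsl (0.80) and Ccbe1 (0.79), with Gmip at -0.80. Spn stood among the 3 nearest to both Ly6a (0.73) and Cd27 (0.71), which had an r of 0.37 with each other and 0.01 within groups. Ly6a was otherwise nearest to Ighv14-3 (0.71) and Spag7 (0.69), with Hmgb3 at -0.72, and Cd27 to Spata21 (0.73) and Chek2 (0.70), with Lcmt2 at -0.73. Ctnnal1 was nearest to Trappc12 (0.66), Ppfia3 and Miip (both 0.64), with Csf2ra at -0.69. Robo4 was nearest to Fam20a (0.73), Abtb2 and Pcdhga11 (both 0.69), with Lamb1 at -0.67, but its Spearman values with the first 3 were 0.30 to 0.41. Ranking by Spearman's rho kept 2 of the 3 genes for Slamf1, Ctnnal1 and Cd27, 1 for Ly6a and Cd9, and 0 for Procr, Fgd5 and Robo4.

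The 8 genes were set beside the marker levels of each library. Pearson r with the mean level of the erythroid markers was -0.56 for Procr, -0.43 for Slamf1 and -0.41 for Cd27, and between -0.21 and -0.35 for the other 5. With the granulocyte-monocyte progenitor markers it was -0.41 for Procr, -0.40 for Fgd5, -0.36 for Cd9 and -0.33 for Ctnnal1. It ran from -0.28 (Robo4) to 0.02 (Ly6a) for the rest. Within groups it was -0.35 for both Cd9 and Cd27, -0.33 for both Procr and Ctnnal1, and -0.18 for Fgd5. The rest ran from -0.13 (Robo4) to 0.11 (Ly6a) within groups. In WT at 1 year against 2 months, where 4 of the 8 genes rose, 5 of 8 erythroid markers fell (10.7% of tested genes passed in either direction). In IL1R1 KO against WT at 1 year 5 of 8 erythroid markers were higher (1.30% of tested genes passed in either direction). In the same WT comparison 5 of 8 neutrophil markers fell, Ly6g, Mmp8, S100a8, S100a9 and Retnlg, with a list median of -5.33 on the log2 scale. Summed over the 8, neutrophil markers stood at 5007 to 35459 in WT at 2 months and 40.2 to 1761 at 1 year. No neutrophil marker passed in the other 11 comparisons between groups, and the part of these markers in the changes of the 8 genes was not tested.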

How the data were processed

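RNA was measured in 30 libraries of sorted bone marrow HSCs, grouped by the submitters' titles and source labels. Per the labels' protocols, 4000 to 5000 cells were lysed in extraction buffer, cDNA was made with Smart-seq2 chemistry, which does not mark strand, and single-end 100-base reads were taken on a NovaSeq. The deposited values are a signal, normalized counts per gene that the authors made with Salmon 1.2.0.0 and DESeq2 1.26.0 on GRCm38 (mm10), per the submitters' processing notes, which also name FastQC 0.11.9 and cutadapt 2.10. Whole reads could not be recovered: at most 18.5% of values below 20 reads came out whole, within 0.001. Depth was estimated from the commonest low value, taken as 1 read, at 15.6 to 56.3 M reads per library, and no counting interval is given. No 2 libraries held identical values.

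Tested were the 16958 of 35727 genes that reached 10 normalized counts in 3 or more libraries, on log2(value + 1), so changes of low genes are understated. limma 3.58.1 (R 4.3.3, trend and robust) fitted the group means of all 30 libraries, and p-values were adjusted by Benjamini-Hochberg over all tested genes per comparison, with a threshold of 0.05. The 16 comparisons were 12 between groups and 4 differences of age changes. The procedure was tested on simulated data. The 8 genes and the gene lists were chosen with earlier results of these data known. Genes named from a list are those outside the 8 called in at least 2 comparisons, up to 4 per list by smallest p, and other names were chosen after their values were seen. Similar genes are the 3 highest and the lowest by Pearson r over 30 libraries, predicted genes left out. Alternatives were the pseudocount, filter, scaling, weights, covariates, the groups fitted, the replicate block, 1 library's age label and each library left out. The settings without high-Mpo libraries and with a Fos covariate were added after seeing the data.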

Additional observations from a re-analysis of the deposited data

Results flagged for a closer look

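Among 40 sets of 4 or 5 libraries of 1 group and 1 gene, 1 held a library set apart from the rest by the Dixon ratio at 95%, which chance gives in about 1 of 20 sets. It was Robo4 in WT at 2 years, where replicate 2 stood at 2532 and the other 3 libraries at 2144 to 2209. No test of Robo4 passed with or without that library.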

How the results depend on the processing

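Over all alternatives, 3261 values of the 8 genes kept their side of the threshold, 44 lost a call, 15 gained one and none of the called values changed sign. Counts of called genes that moved by over 1.5 times were these. In IL1R1 KO against WT at 2 years 2 genes (Ly6a and Cd27) passed with a filter at 50, upper-quartile scaling, library-sum scaling, array quality weights or the progenitor covariate, and 0 with the erythroid or Fos covariate or without the 9 high-Mpo libraries. Between 2 months and 1 year in germ-free libraries 0 passed with only the groups compared, with array weights, and without the 6 or 9 high-Mpo libraries. In IL1R1 KO at 2 years against 2 months 0 passed without the 6 or the 9. In WT at 1 year 1 (Slamf1) passed with the erythroid covariate, and in WT at 2 years 2 (Procr and Slamf1) without the 9. In germ-free against WT at 1 year 0 passed with the erythroid covariate and 1 (Slamf1) with array weights. With the replicate block, 1 gene (Procr) passed in each of 2 comparisons, IL1R1 KO at 2 years against 2 months and germ-free against WT at 1 year, where Slamf1 was lost. Same-numbered libraries had correlations of -0.11 to 0.16 in their deviations from group means, over 2 to 4 pairs per comparison. The mean per comparison ran from -0.07 (germ-free against WT at 2 months) to 0.08 (germ-free against WT at 1 year). So few pairs cannot decide whether same-numbered libraries share a batch. Leaving out 1 library at a time gave 3 to 4 called genes in WT at 1 year, 3 to 5 in WT at 2 years, 1 to 3 in IL1R1 KO at 2 years, 0 to 1 in germ-free libraries at 1 year, 0 to 2 in germ-free against WT at 1 year and 0 to 2 in IL1R1 KO against WT at 2 years, and 0 in the other comparisons. No scaling moved the median gene by over 0.06 on the log2 scale. The germ-free group of 1 year holds 2 libraries, which limits its comparisons.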
